A study of Homo sapiens with 21 samples.

Results

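The step from 60 to 120 min after epidermal growth factor (EGF) was followed in MCF10A, a human breast epithelial line that grows without limit in culture but does not form tumours. The arrays were chosen by their labelled time, and 6 of the 21 arrays of the series belonged to it, 3 at 60 min and 3 at 120 min. All cultures were kept without EGF for 24 h, starved for a further 24 h in 1% horse serum and then given EGF at 20 ng/ml, so both groups had received the same treatment and differed in time alone. The other arrays were taken at 0, 20, 40, 240 and 480 min, with 3 cultures at each time, which the labels call biological triplicates. No culture without EGF was carried along in time, so an effect of EGF and an effect of handling or of time in culture cannot be told apart. MCF10A is a single immortalised line, and the arrays read total RNA of the whole culture, so fewer cells of a type and less RNA per cell cannot be told apart either.

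EGF binds its receptor EGFR and activates the kinase ERK, which switches on immediate early genes without any need for new protein. Many of these genes encode transcription factors, and their messages are short-lived. Their products then turn on delayed and secondary genes, while induced phosphatases, Sprouty proteins and RNA-binding proteins damp the pathway and remove the early messages. The interval described here is the one in which the early wave is known to give way to the secondary one in epithelial cells.

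Each gene was read by several probesets, which are small groups of probes on an array. The value of a gene was the median over its probesets that carried a single gene symbol, on the log2(intensity + 16) scale. Per-array values are given below as that median turned back into intensity units, and changes as the log2 difference, 120 min minus 60 min, with limma's standard error. That standard error draws on the spread within all 7 times. A gene was called when its Benjamini-Hochberg adjusted p over all 16614 genes tested was under 0.05. Changes of dim genes are understated on this scale. Array medians lay between 20.44 and 20.56 intensity units. The arrays at 60 min correlated at 0.973 or more with each other, but replicates 1 and 3 at 120 min correlated at only 0.944. Both also lay farthest from the mean of their time among all 21 arrays, at a root mean square of 0.212 and 0.204. These same arrays had the lowest and the highest array index of the 6, 1.224 and 1.416, where the index is the median log2 signal of probesets of single genes minus that of unnamed probesets. At 60 min this index averaged 1.312 ± 0.031 (SD, n = 3), against 1.325 ± 0.096 (SD, n = 3) at 120 min, and its part in the results was not tested beyond the fits that include it.

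The labelled cell type was checked first. Basal epithelial markers were bright and steady. The keratin gene KRT5 averaged 5526 intensity units at 60 min and 5662 at 120 min, and TP63, the basal lineage factor gene, 609 and 729. All 13 measured basal markers lay above the filter level of 20.2 units, and 0 of the 13 tested were called. Their summed intensity was 19550 to 20729 on the arrays at 60 min and 19663 to 22037 at 120 min. The summed luminal markers were 2473 to 2803 at 60 min and 2850 to 2862 at 120 min, so these groups of arrays did not overlap. Of 10 measured luminal markers 8 lay above the filter level at each time, with KRT8 brightest at 928 and 1130 units. The hormone receptor gene PGR was near the floor at 8.12 and 7.21 units. The summed fibroblast markers were 583 to 652 and 537 to 590. Of 13 measured 9 lay above the filter level at each time, with COL1A1 brightest at 129 and 123 and LUM dimmest at 8.54 and 6.30. Of 9 luminal and 12 fibroblast markers tested 0 were called in either direction, and their part in the results below was not tested.

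From 60 to 120 min 363 genes rose and 216 fell, or 2.18% and 1.3% of the genes tested (limma, adjusted p under 0.05), and 65 of these 579 genes (3.49%) changed by more than 1 on the log2 scale. The largest falls were in NR4A1, at 9.02-fold lower, EGR2, the ubiquitin ligase gene FBXO32 and PTGS2. The largest rises were in the cytokine gene IL33, at 4.18-fold higher, DKK1, PAQR5 and the collagenase gene MMP1. IL33 and MMP1 averaged below the filter level of 20.2 units at 60 min and passed the filter through later arrays. The median change over all genes was 0.02, and array medians had been equalised before deposit, so a shift common to all genes could not be seen. The number of rises was 237 without 60 min replicate 1, 229 without 60 min replicate 2, 232 without 120 min replicate 2 and 216 without 120 min replicate 3, and the number of falls was 142 without 120 min replicate 1. With the array index as a covariate 635 genes rose and 494 fell, among them all 363 and all 216 of the first fit.

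**Figure D1:**
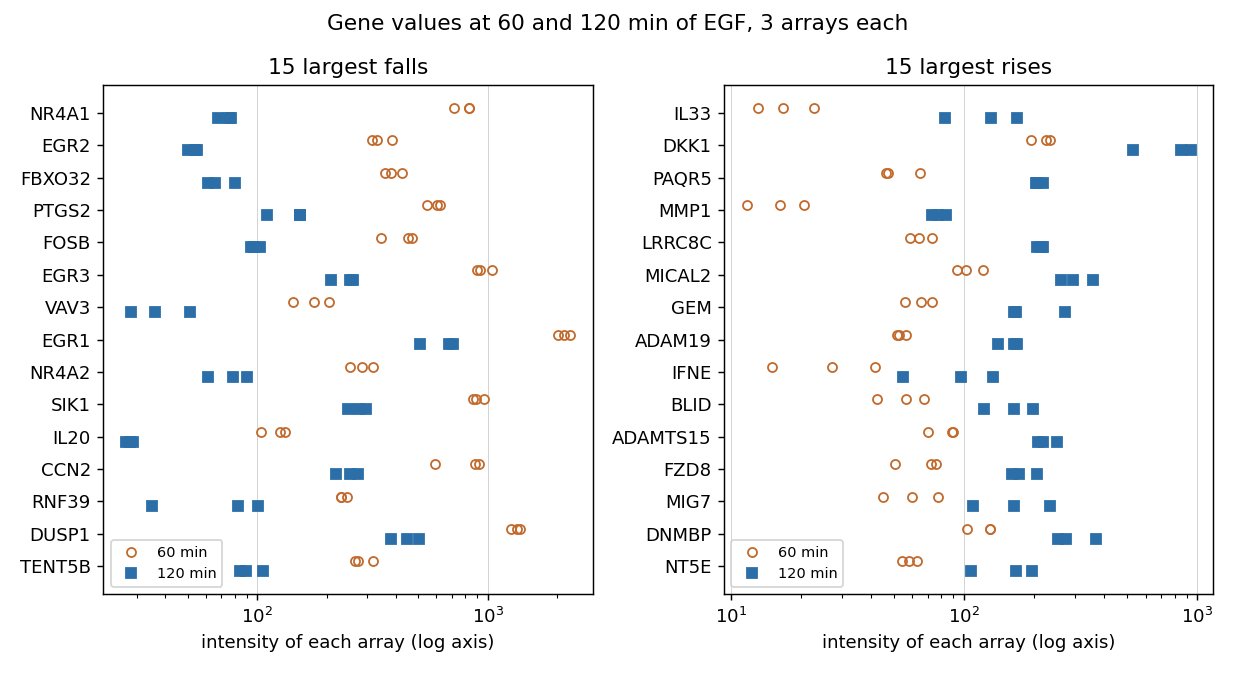
Intensity on each array at 60 min (open circles) and 120 min (filled squares) of the 15 genes with the largest falls and the 15 with the largest rises, on a log axis. In each of the 30 genes the 3 arrays at 120 min lie wholly on one side of the 3 at 60 min, which the choice of these genes required, and NR4A1 and IL33 stand farthest apart.

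To show what the falling and rising genes look like upstream, the 180 bases before the annotated start of 4 of them are given, 5′ to 3′ on the gene's strand. EGR1, DUSP1 and TNFAIP3 fell and NOP56 rose, and the genes were picked, after their values were seen, because a searched motif lies in the stretch. Capitals mark the SRF CArG boxes in EGR1, the cyclic AMP response element (CRE) in DUSP1, the NF-kB motif in TNFAIP3 and the EGR motif in NOP56. The sequences are from RefSeq, build GRCh38.p14, at chr5:138465299-138465478 (plus strand), chr5:172771196-172771375 (minus strand), chr6:137867079-137867258 (plus strand) and chr20:2652452-2652631 (plus strand).
EGR1: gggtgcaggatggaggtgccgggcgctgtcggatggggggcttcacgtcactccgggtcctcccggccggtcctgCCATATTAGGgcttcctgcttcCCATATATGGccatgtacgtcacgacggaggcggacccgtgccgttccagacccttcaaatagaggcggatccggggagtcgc
DUSP1: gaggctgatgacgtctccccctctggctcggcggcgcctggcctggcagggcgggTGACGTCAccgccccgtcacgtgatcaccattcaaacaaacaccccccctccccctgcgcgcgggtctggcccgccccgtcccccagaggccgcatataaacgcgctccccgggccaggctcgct
TNFAIP3: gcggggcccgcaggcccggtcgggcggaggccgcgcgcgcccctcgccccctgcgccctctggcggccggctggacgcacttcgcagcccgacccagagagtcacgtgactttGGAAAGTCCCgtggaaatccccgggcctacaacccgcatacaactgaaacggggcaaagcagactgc
NOP56: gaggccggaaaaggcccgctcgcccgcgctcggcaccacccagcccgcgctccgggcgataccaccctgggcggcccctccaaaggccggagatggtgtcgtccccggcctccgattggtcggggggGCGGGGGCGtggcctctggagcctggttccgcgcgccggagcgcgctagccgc

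The 22 gene lists were chosen with earlier results of these data known, so their shares of calls are a description and not a test. Among them the immediate early transcription factors made up the clearest falling group. Of 29 tested members 15 fell, 0 rose and 14 did not pass, against 1.3% of all genes falling, and the median change of the list was -0.57 against 0.02 over all genes. NR4A1, an orphan nuclear receptor gene, read 830, 828 and 712 units on the arrays at 60 min and 76.8, 67.4 and 75.4 at 120 min. It fell by 3.17 ± 0.12, adjusted p = 1.3e-13 (limma, SE, n = 3 arrays per time). The groups were far apart, and 28 of its 29 probesets were lower at 120 min. EGR2, a zinc finger factor gene, read 384, 316 and 330 and then 50.3, 53.8 and 54.7, and fell by 2.38 ± 0.17. EGR3 of the same family read 1040, 926 and 898 and then 261, 209 and 253, a fall by 1.92 ± 0.18. EGR1, the family member whose CArG boxes are printed above, read 2143, 2285 and 2017 and then 682, 508 and 706, a fall by 1.75 ± 0.13. All 3 of these EGR genes kept their groups of arrays apart, with 120 min lower, as did 6.62% of all genes.

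The AP-1 subunit genes did not move together. FOSB read 471, 450 and 345 units at 60 min and 93.8, 103 and 96.9 at 120 min, and fell by 1.93 ± 0.12, adjusted p = 1.8e-09. JUNB read 1456, 1578 and 1868 and then 568, 594 and 805, a fall by 1.31 ± 0.12. FOS read 225, 350 and 220 and then 186, 172 and 204, a change of -0.44 ± 0.21 that did not pass (adjusted p = 0.37). FOS had already left its peak, since it read 1560, 1623 and 1070 at 40 min, so most of its decline lay before this interval. JUN stood at -0.39 ± 0.12 (adjusted p = 0.099) and FOSL1, which encodes a later FOS family member, at -0.07 ± 0.14 (adjusted p = 0.91). FOSL1 read 395, 368 and 356 units and then 344, 395 and 329, and these arrays overlapped.

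Other early factors fell as well. The nuclear receptor gene NR4A2 fell by 1.71 ± 0.15 and its relative NR4A3 by 0.77 ± 0.14 (-0.31, adjusted p = 0.36, without the filter on dim probesets). HES1, a repressor gene best known as a Notch target, read 472, 364 and 374 units and then 147, 162 and 162, and fell by 1.27 ± 0.12. BHLHE40, a repressor gene tied to the circadian clock, fell by 1.40 ± 0.18, CSRNP1 by 1.03 ± 0.14 and ETS2 by 0.70 ± 0.12. The weaker calls were NFIL3 at -1.13 ± 0.25, ATF3 at -0.57 ± 0.16 and IER3 at -0.39 ± 0.09. Of these NFIL3 had not been raised at 40 min (-0.12 against 0 min, adjusted p = 0.91, limma). NFIL3 was not called without 60 min replicate 1 or 3 or 120 min replicate 1. ATF3 was not called without 60 min replicate 1 or 2 or 120 min replicate 2 or 3, and IER3 not without 60 min replicate 2, and adjusted p over all refits reached 0.47, 0.26 and 0.33. Of the 14 members that did not pass, the highest was CEBPB at 0.15 ± 0.14.

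**Figure D2:**
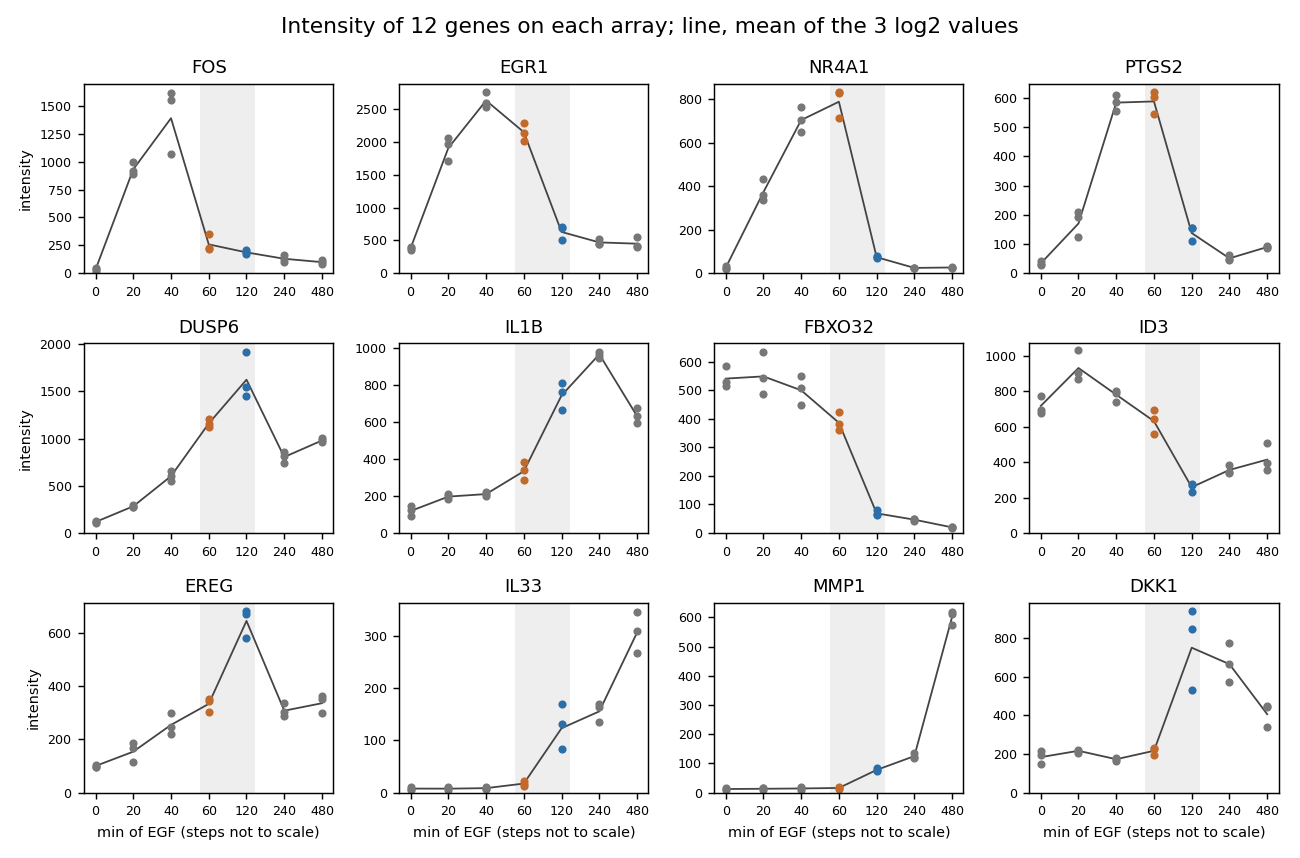
Intensity on each array (points) at each of the 7 times for 12 genes, with a line through the back-transformed mean of the 3 log2 values. The shaded band holds 60 and 120 min, time steps are not to scale, and each panel has its own axis starting at 0. FOS falls mostly before the band, EGR1, NR4A1 and PTGS2 within it, and IL33, MMP1 and DKK1 climb within it.

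Feedback regulators of ERK and EGFR signalling split. Of 24 tested members 5 rose, 10 fell and 9 did not pass, so both shares, 20.8% and 41.7%, lay above those of all genes. The falls included nuclear phosphatase genes and corepressor genes. DUSP1, which encodes a nuclear phosphatase of MAP kinases, read 1378, 1347 and 1264 units at 60 min and 446, 503 and 381 at 120 min, and fell by 1.56 ± 0.13, adjusted p = 9.6e-08. DUSP5, which encodes a nuclear ERK phosphatase, read 803, 766 and 628 and then 313, 343 and 318, a fall by 1.13 ± 0.13. DUSP2, of the same nuclear class, fell by 0.91 ± 0.15. The other falls were in LRIG3, SPRY2, DUSP10, SOCS3, NAB2, NAB1 and IER3, from -0.63 for LRIG3 to -0.39 for IER3. In a fit of the 6 arrays alone 2 members rose and 5 fell. NAB1 and NAB2 encode corepressors of the EGR factors, and they fell by 0.46 ± 0.12 and 0.53 ± 0.10.

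The cytoplasmic ERK phosphatase genes went the other way. DUSP7 read 528, 438 and 507 units and then 845, 886 and 824, and rose by 0.78 ± 0.11, adjusted p = 0.00017. DUSP6 read 1203, 1152 and 1125 and then 1450, 1543 and 1919, a rise by 0.48 ± 0.11 (adjusted p = 0.011, and 0.06 without the filter on dim probesets). It was not called without 60 min replicate 3 or 120 min replicate 3. Among the Sprouty genes, whose products restrain signalling from receptor to ERK, SPRY4 rose by 0.83 ± 0.16 and SPRY2 fell by 0.62 ± 0.11. SPRY4 read 228, 182 and 253 units and then 373, 373 and 463, whereas SPRY2 read 284, 334 and 303 and then 184, 195 and 205. In both genes the groups of arrays did not overlap, as in 17.1% of all genes. SPRED1, a Sprouty-related gene, rose by 0.64 ± 0.11 and PHLDA1 by 0.65 ± 0.13. ERRFI1, whose product inhibits EGFR directly, stood at -0.08 ± 0.13 (adjusted p = 0.87). NAB1 was not called without 60 min replicate 2 or 3 or 120 min replicate 1 or 2, and DUSP10 not without 60 min replicate 1 or 3 or 120 min replicate 1 or 2.

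Regulators of mRNA decay and of translation had 4 falls, 0 rises and 16 members that did not pass out of 20. The falls were 20% of the list, against 1.3% of all genes. TOB1, an antiproliferative gene whose product recruits deadenylases, read 470, 505 and 543 units and then 152, 165 and 218, and fell by 1.44 ± 0.20. ZFP36, whose product destabilises AU-rich messages, read 299, 376 and 325 and then 198, 178 and 208, a fall by 0.73 ± 0.15. The endonuclease gene ZC3H12A fell by 0.67 ± 0.12 and BTG2 by 0.66 ± 0.14. The ZFP36 relatives were not called, with ZFP36L1 at -0.24 ± 0.11 and ZFP36L2 at 0.12 ± 0.14.

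Cytokine, chemokine and NF-kB target genes also divided. Of 23 tested, 6 rose, 4 fell and 13 did not pass, against 2.18% and 1.3% of all genes. The falls held inhibitors of NF-kB and a prostaglandin synthase. PTGS2, the inducible prostaglandin synthase gene, read 605, 547 and 620 units and then 153, 110 and 153, and fell by 1.98 ± 0.16, adjusted p = 3.8e-08. TNFAIP3, which encodes a deubiquitinase that restrains NF-kB, read 745, 739 and 743 and then 318, 308 and 371, a fall by 1.13 ± 0.11. NFKBIA, the gene of the inhibitor IkB alpha, fell by 0.88 ± 0.13 and NFKBIZ by 0.81 ± 0.16. The PTGS2 groups lay farthest apart of these.

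The rising members encoded secreted cytokines and chemokines. IL33, an alarmin of the interleukin 1 family, read 22.7, 13.1 and 16.7 units at 60 min and 82.7, 131 and 169 at 120 min, and rose by 2.06 ± 0.17, adjusted p = 9.2e-08. On 60 min replicates 2 and 3 it lay below the filter level of 20.2, and so did its mean at 60 min. It passed the filter through its later arrays, those at 120 min included. Its fold thus rests on a dim start and is the more understated. IL1B read 384, 288 and 339 and then 666, 809 and 761, a rise by 1.11 ± 0.13. The chemokine gene CCL20 read 54.1, 53.5 and 62.8 and then 108, 119 and 143, a rise by 0.93 ± 0.13. In all 3 genes the lowest array at 120 min was above the highest at 60 min, as in 10.5% of all genes. CXCL1 at 0.61 ± 0.15, IL24 at 0.61 ± 0.16 and CSF3 at 0.59 ± 0.14 also passed, but the count of rises was 3 when 60 min replicate 2 or 3 or 120 min replicate 2 was left out, and 2 with the stricter filter. The neutrophil chemokine gene CXCL8 and the cytokine gene LIF did not pass, at 0.21 ± 0.19 and -0.29 ± 0.16. IL20, a gene of the interleukin 10 family outside the list, read 132, 104 and 126 units and then 28.2, 28.9 and 26.9, and fell by 1.63 ± 0.13.

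Genes of proteolysis, matrix and migration had the highest share of rises of all 22 lists in this fit, with 10 of 27 tested (37%) and 0 falls. This rank is a description only, since the lists were chosen with earlier results of these data known. Over all genes 2.18% rose and 1.3% fell. MMP1, the interstitial collagenase gene, read 20.7, 11.7 and 16.3 units at 60 min and 83.5, 77.6 and 72.8 at 120 min, and rose by 1.55 ± 0.13, adjusted p = 8.4e-08. All 13 of its probesets kept by the filter were higher at 120 min, which a filter on the mean over 21 arrays itself favoured. MMP1 averaged below the filter level of 20.2 units at 60 min and passed through its later arrays, so its fold is understated and rests on a dim start. The gelatinase gene MMP9 rose by 0.80 ± 0.12 and the stromelysin gene MMP10 by 0.76 ± 0.14. FERMT1, which encodes the integrin activator kindlin-1, read 194, 218 and 205 and then 321, 390 and 416, a rise by 0.81 ± 0.11. The integrin gene ITGA2 rose by 0.70 ± 0.17 and ITGA3 by 0.43 ± 0.09. The plasminogen activator gene PLAT rose by 0.55 ± 0.09, the protease inhibitor genes TIMP1 and SERPINE2 by 0.68 ± 0.17 and 0.62 ± 0.14, and the hyaluronan receptor gene CD44 by 0.52 ± 0.12. In a fit of the 6 arrays alone 5 members rose.

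Some members that were already raised at 40 min did not pass over this interval. The urokinase receptor gene PLAUR read 999, 955 and 846 units and then 907, 824 and 846, a change of -0.12 ± 0.10 (adjusted p = 0.69), and PLAU and HAS3 stood at -0.11 ± 0.10 and 0.11 ± 0.11. Single arrays ended some of the weaker calls. TIMP1 was not called without any 60 min array or without 120 min replicate 3 (0.45, adjusted p = 0.49, without the filter on dim probesets). ITGA2 was not called without 60 min replicate 1 or 2 or 120 min replicate 2 or 3, CD44 not without 60 min replicate 1 or 120 min replicate 3, and SERPINE2 not without 60 min replicate 2 or 120 min replicate 2.

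FOXO and quiescence genes, many of which are known to be high in starved cells, also had more falls than rises. Of 30 tested 8 fell (26.7%), 1 rose (3.33%) and 21 did not pass, against 1.3% falling and 2.18% rising over all genes. The median change was -0.26. FBXO32, a ubiquitin ligase gene known as a FOXO target, read 380, 424 and 359 units and then 61.3, 65.7 and 79.9, and fell by 2.25 ± 0.12, adjusted p = 5.5e-11. PIK3IP1, whose product inhibits PI3 kinase, read 89.0, 64.6 and 66.6 and then 30.1, 27.3 and 34.0, a fall by 0.94 ± 0.12. CITED2, a transcriptional coregulator gene, read 390, 380 and 324 and then 195, 187 and 182, a fall by 0.90 ± 0.10. CITED2 was among the genes called higher at 40 min, with 194, 223 and 214 units at 0 min and 431, 450 and 427 at 40 min. The sestrin gene SESN1 fell by 1.05 ± 0.23, TP53INP1 by 0.77 ± 0.13, KLHL24 by 0.72 ± 0.16, the alpha-arrestin gene ARRDC4 by 0.65 ± 0.11 and the insulin receptor substrate gene IRS2 by 0.52 ± 0.09. The single rise, TRIB2 at 0.46 ± 0.13 (adjusted p = 0.047), was called without 120 min replicate 1 but not without any other of the 6 arrays. TXNIP stood at -0.21 ± 0.10 and BCL6 at 0.15 ± 0.15, and neither passed.

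ID and BMP target genes had 4 falls (26.7%, against 1.3% of all genes) and 0 rises in 15. ID3, which encodes an inhibitor of basic helix-loop-helix factors, read 697, 645 and 558 units and then 230, 269 and 277, and fell by 1.24 ± 0.12, adjusted p = 9.4e-07. ID1 fell by 0.64 ± 0.14, ID2 by 0.58 ± 0.15 and the BMP pseudoreceptor gene BAMBI by 0.43 ± 0.12. The count was 2 without 60 min replicate 1 and 1 without 120 min replicate 2. SRF and YAP targets had 5 falls (22.7%, against 1.3% of all genes) and 0 rises in 22. The matricellular genes CCN2 and CCN1 read 881, 921 and 594 and then 275, 221 and 253, and 333, 314 and 275 and then 119, 91.2 and 117. They fell by 1.60 ± 0.15 and 1.37 ± 0.13. AJUBA and TPM1, genes of junctions and of actin filaments, fell by 0.84 ± 0.10 and 0.81 ± 0.13, and FILIP1L by 0.52 ± 0.13 (0 without the filter on dim probesets, and not called without 60 min replicate 1 or 2 or 120 min replicate 1 or 2). Structural members were not called, with VCL at 0.10 ± 0.11 and ACTB at 0.01 ± 0.10.

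Among p53 targets 6 of 20 fell (30%) and 1 rose (5%), against 1.3% and 2.18% of all genes. The polo-like kinase gene PLK2 read 1213, 1232 and 1242 units and then 374, 542 and 585, and fell by 1.30 ± 0.16. PMAIP1 fell by 0.72 ± 0.17, BTG2 as given above, XPC by 0.57 ± 0.13, MDM2 by 0.46 ± 0.13 (adjusted p = 0.049, limma) and PPM1D by 0.41 ± 0.09, and the death receptor gene FAS rose by 0.71 ± 0.14 (0.31, adjusted p = 0.3, with the mean over probesets). CDKN1A, the p21 gene, stood at -0.11 ± 0.11 and did not pass. The count of falls was 10 with the mean over probesets, and 3 on leaving out 60 min replicate 2, either of 120 min replicates 1 and 2, or the filter on dim probesets. MDM2 was called without 120 min replicate 3 but not without any other of the 6 arrays. PMAIP1 was not called without 60 min replicate 2 or 3 or 120 min replicate 1 or 2, XPC not without 60 min replicate 1 or 120 min replicate 2, and PPM1D not without 60 min replicate 2 or 120 min replicate 1.

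Delayed transcription and chromatin regulators gave 2 rises and 3 falls in 24, which is 8.33% and 12.5% against 2.18% and 1.3% of all genes, with a median change of 0.15. With the mean over probesets 5 members rose. HMGA2, which encodes an architectural chromatin protein, read 58.6, 69.5 and 67.6 units and then 104, 136 and 163, and rose by 0.87 ± 0.13. The corepressor gene NRIP1 rose by 0.67 ± 0.12. The epithelial factor gene ELF3 read 119, 124 and 68.5 and then 31.1, 28.0 and 37.1, a fall by 1.29 ± 0.18, FOSL2 fell by 0.81 ± 0.12 and RUNX1 by 0.44 ± 0.11. RUNX1 was not called without 60 min replicate 1 or 2 or 120 min replicate 1 or 2.

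EGF family ligands, receptors and sheddases had 1 rise and 0 falls in 14, where 2.18% of all genes rose and 1.3% fell. The counts were 2 and 2 with the mean over probesets and 3 and 1 with the array index as a covariate. EREG, the epiregulin gene, read 352, 346 and 303 units and then 671, 583 and 683, and rose by 0.92 ± 0.14, adjusted p = 0.00024. HBEGF read 1807, 1639 and 1670 and then 1174, 1233 and 1318, a change of -0.45 ± 0.16 that did not pass (adjusted p = 0.14), although its groups of arrays did not overlap. TGFA stood at 0.50 ± 0.15 (adjusted p = 0.064). Arrays that do not overlap were common, since 17.1% of all genes showed this, 10.5% higher and 6.62% lower at 120 min.

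Among 32 tested genes of ribosome biogenesis and RNA polymerase I there were 6 rises and 0 falls, and the median change was 0.28. These rises were 18.8% of the list, against 2.18% of all genes. NOP56, a core protein gene of the small nucleolar ribonucleoproteins, read 297, 320 and 301 units and then 440, 480 and 565, and rose by 0.66 ± 0.13, and BOP1 rose by 0.54 ± 0.11. BYSL, RRP1B, POLR1C and NOP2 rose by 0.48, 0.48, 0.44 and 0.40. The count of rises dropped to 2 when 60 min replicate 1 or 2 or 120 min replicate 3 was left out, was 10 without 120 min replicate 1 and 12 with the array index as a covariate. Cell cycle genes had few calls. E2F3, at 0.51 ± 0.12, was the single rise among 27 G1 and S phase genes (3.7%, near the 2.18% of all genes). It was not called without 60 min replicate 1 or 2 or 120 min replicate 3.

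In the mitosis list 0 of 27 genes were called, in the cholesterol list 0 of 18, in the glycolysis and supply list 0 of 28 and among reference genes 0 of 12 (limma). With the mean over probesets 3 glycolysis and supply genes rose and 2 fell. Over all genes 2307 had an unadjusted p under 0.05. The cornified envelope list had 2 rises in 17, the elastase inhibitor gene PI3 at 0.55 ± 0.12 and S100A2 at 0.53 ± 0.15 (adjusted p = 0.049), and S100A2 was called without 60 min replicate 3 but not without any other of the 6 arrays. PI3 was not called without 60 min replicate 3 or 120 min replicate 3. The interferon list had 1 rise, OAS1 at 0.53 ± 0.13, and 1 fall, IRF1 at -0.49 ± 0.11, in 17. Each was 5.88% of that list, and the 2 cornified envelope rises were 11.8% of theirs. Over all genes 2.18% rose and 1.3% fell. OAS1 was not called without 60 min replicate 2 or 120 min replicate 3, and IRF1 not without 120 min replicate 2.

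**Figure D3:**
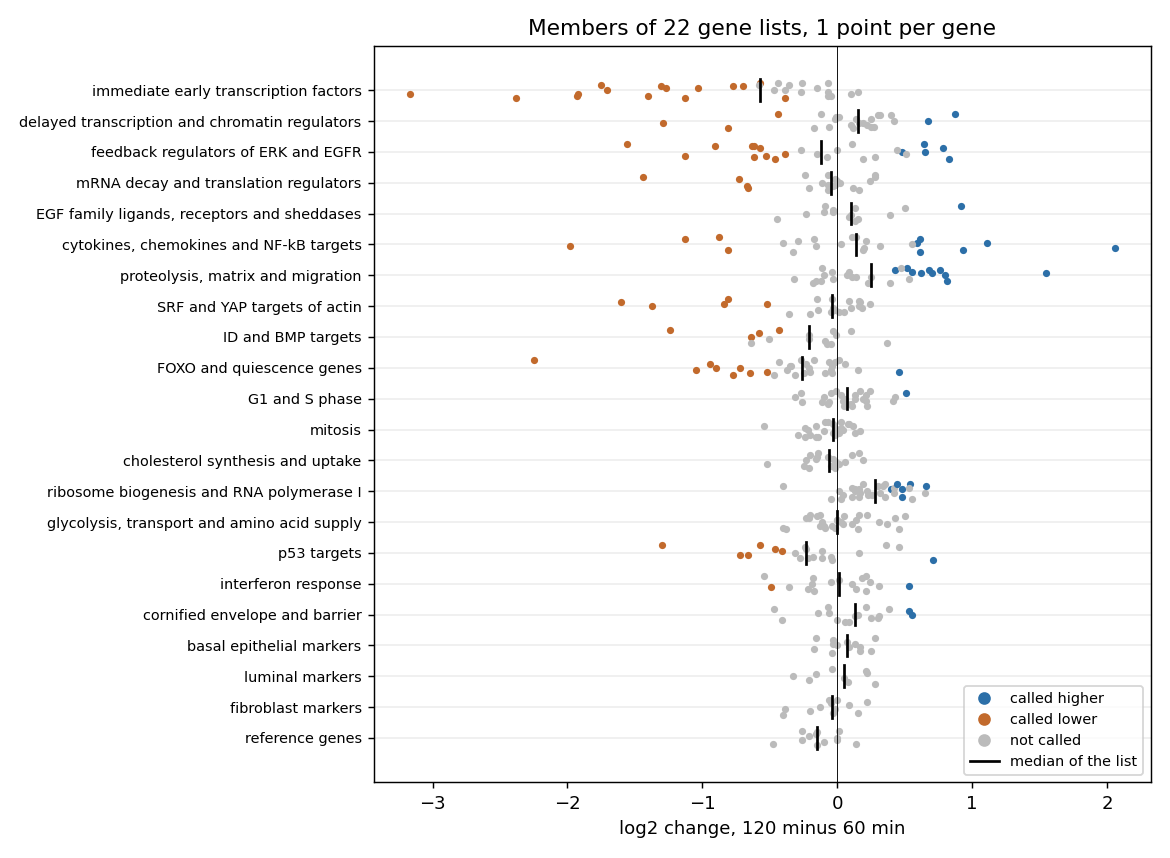
Log2 change from 60 to 120 min of each tested member of 22 gene lists (1 point per gene, spread vertically for view), coloured by call, with the median of each list as a black bar. Immediate early factors extend to -3.17 with 15 of 29 called lower, feedback regulators and cytokines spread to both sides, and proteolysis genes have calls on the higher side, 10 of 27.

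Several large changes lay outside the lists. Among the rises, DKK1, which encodes a secreted inhibitor of WNT signalling, read 224, 194 and 233 units and then 532, 848 and 940, and rose by 1.72 ± 0.17. The WNT receptor gene FZD8 rose by 1.26 ± 0.17. PAQR5, a membrane progestin receptor gene, read 46.3, 64.6 and 47.1 and then 219, 203 and 206, a rise by 1.72 ± 0.11 with the smallest adjusted p of the rises named here, 2.3e-09. LRRC8C, a subunit gene of volume-regulated anion channels, rose by 1.49 ± 0.10 and the actin oxidase gene MICAL2 by 1.40 ± 0.13. The metalloprotease genes ADAM19 and ADAMTS15 read 52.9, 51.7 and 56.4 and then 164, 140 and 169, and 89.1, 69.8 and 89.7 and then 208, 218 and 251. They rose by 1.32 ± 0.10 and 1.29 ± 0.12. NT5E, the gene of the ectonucleotidase CD73, rose by 1.18 ± 0.19, the interferon epsilon gene IFNE by 1.32 ± 0.22, BLID by 1.30 ± 0.20 and MIG7 by 1.23 ± 0.21.

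Among the falls outside the lists, VAV3, a guanine nucleotide exchange factor gene, read 177, 143 and 205 units and then 28.5, 35.9 and 50.9, and fell by 1.82 ± 0.16. Its value rested on 19 probesets above the filter, and without the filter it was -0.11 (adjusted p = 0.73). SIK1, a salt-inducible kinase gene, read 863, 967 and 888 and then 297, 247 and 276, a fall by 1.67 ± 0.11. RNF39 read 245, 231 and 231 and then 35.1, 82.4 and 101, a fall by 1.59 ± 0.21, and 120 min replicate 1 was the lowest of its arrays. TENT5B, a poly(A) polymerase gene, fell by 1.47 ± 0.15.

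Genes were next sorted by what they did at 40 min and at 240 min against 0 min, which used none of the 6 arrays described here. The sorting arrays and the arrays read thus shared no noise, apart from the pooled variance estimate. The interval read lies between the sorting times, however, so the sorting itself favours a direction in most groups. The directions below are therefore a description and not an independent check. Against 0 min, 302 genes (1.82%) were raised and 69 (0.415%) lowered at 40 min, and 2249 (13.5%) and 1032 (6.21%) at 240 min. From 60 to 120 min 2.18% of all genes rose and 1.3% fell. Of 97 genes that were higher at 40 min and not called at 240 min, 45 (46.4%) fell from 60 to 120 min and 0 rose, with a median change of -0.43. NR4A1, EGR2, FOSB, EGR3 and EGR1 led them. Of 11 genes higher at 40 min and lower at 240 min, 9 fell, among them MAP3K8 by 1.40 ± 0.14, ELF3, HES1, the serum amyloid gene SAA2 by 0.95 ± 0.15 and TPM1.

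Early genes that were still raised at 240 min went both ways. Of 194 such genes 27 rose (13.9%) and 20 fell (10.3%), against 2.18% and 1.3% of all genes, with a median change of 0.07. The leading rises were MIG7, IL1B, CCL20, EREG and SPRY4, and the leading falls PTGS2, DUSP1, BHLHE40, CCN1 and JUNB. The 27 rises were 17 without 60 min replicate 1 or 2 and 14 without 60 min replicate 3 or 120 min replicate 3. With the mean over probesets 48 rose and 41 fell, with the array index as a covariate 43 rose, and without the filter on dim probesets 13 fell. EREG illustrates a gene that turned later, since it read 304, 289 and 336 units at 240 min after 671, 583 and 683 at 120 min.

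Late genes showed their change in a single direction in this fit, which the sorting by 40 and 240 min itself favoured. Among all genes tested 2.18% rose and 1.3% fell. Of 2055 genes not called at 40 min and higher at 240 min, 281 (13.7%) rose and 0 fell, with a median change of 0.20. IL33, DKK1, PAQR5, MMP1 and LRRC8C led them. MMP1 went on to 572, 610 and 618 units at 480 min. Of 989 genes not called at 40 min and lower at 240 min, 88 (8.9%) fell and 0 rose, with a median of -0.15, led by FBXO32, VAV3, TENT5B, ID3 and NFIL3. The 281 rises were 183 without 60 min replicate 1 or 2 and 172 without 120 min replicate 3, and the 88 falls were 57 without 60 min replicate 3 and 56 without 120 min replicate 1. With the array index as a covariate they were 429 and 232, and with the mean over probesets 453 and 173. In these refits 1 or 2 genes of the first group fell, and with the index 1 gene of the second rose.

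Genes called at neither of these times were a large group with few calls. Of 13199 such genes 50 rose and 52 fell (0.379% and 0.394%), against 2.18% and 1.3% of all genes. The leading rises were GEM, BLID, DNMBP, CEP170P1 and EOMES. GEM, a small GTPase gene, read 72.9, 56.0 and 65.5 units at 60 min, 164, 167 and 270 at 120 min and 37.2, 33.8 and 34.7 at 240 min, and its rise was by 1.39 ± 0.15. DNMBP read 103, 129 and 129, then 253, 273 and 367, then 130, 134 and 154, and rose by 1.19 ± 0.13. Both genes were thus higher on every array at 120 min than on any at 60 or 240 min. Their choice, as called rises without a call at 240 min, favoured that pattern. The leading falls were TOB1, RIMKLB, LDHAL6B, CLEC20A and TSIX. CEP170P1, CLEC20A and TSIX rested on weak calls, with adjusted p up to 0.26, 0.79 and 0.93 over the refits, and CEP170P1 and TSIX on 3 probesets each.

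Read from the called genes, 308 of the 363 rises (84.8%) were higher and 0 lower than before EGF at 240 min. Over all genes these shares were 13.5% and 6.21%. At 480 min 296 of the rises were higher, where 15.5% of all genes were higher and 7.11% lower. Of the 216 falls 74 (34.3%) were higher than before EGF at 40 min, as were 1.82% of all genes. At 240 min 99 of the falls (45.8%) were lower, and at 480 min 92 (42.6%). The interval lies between 40 and 240 min, which itself favours these directions. Of the rises 32 (8.82%) and of the falls 44 (20.4%) were called at none of 40, 240 and 480 min, against 71.8% of all genes.

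A last test asked whether the change over this interval differed from the change from 40 to 60 min. The intervals share the 60 min arrays, so a single contrast was fitted for the difference. They also differ in length, and the contrast was not scaled for that. A gene that changed at a steady rate can therefore be called too. The contrast called 47 genes (0.283%), 37 (0.223%) with a turn towards lower and 10 (0.0602%) towards higher. The largest turns towards lower were in NR4A1 at -3.33 ± 0.20, LDHAL6B at -2.26 ± 0.22, RIMKLB at -2.14 ± 0.24 and EGR2 at -2.13 ± 0.30, with adjusted p from 3e-09 to 0.00056. RIMKLB, an amino acid ligase family gene, read 334, 299 and 384 units at 40 min, 526, 581 and 645 at 60 min and 187, 211 and 244 at 120 min. LDHAL6B read 21.4, 22.5 and 23.8, then 73.1, 68.4 and 95.9, then 27.0, 36.8 and 33.5. Both genes were thus higher on every array at 60 min than on any array at the other 2 times. Their choice by this contrast favoured that pattern.

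The largest turns towards higher were in FOS at 1.92 ± 0.37, PAQR5 at 1.85 ± 0.19, IL33 at 1.62 ± 0.30 and MMP1 at 1.47 ± 0.22. FOS entered through its earlier drop, since its change from 40 to 60 min was -2.36 and from 60 to 120 min -0.44, whereas PAQR5, IL33 and MMP1 changed by -0.13, 0.44 and 0.08 before and by 1.72, 2.06 and 1.55 after 60 min. The number of called turns was 27 without 60 min replicate 1 and 30 without 60 min replicate 3.

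Motifs were counted in the window from 250 bases before to 50 after each gene's start, on both strands, for the 13067 of 16614 tested genes that RefSeq's promoter table (GRCh38.p14) matched by symbol. The windows of 176 falling and 290 rising genes were matched. The EGR motif, GCGGGGGCG or GCGTGGGCG, was in 13.6% of the falling, 12.8% of the rising and 8.61% of all windows. The ETS motif CCGGAAG was in 6.25%, 15.9% and 15.7%. The SRF CArG box was in 2.84%, 1.72% and 1.16%, which is 5 falling and 5 rising genes. The AP-1 motif TGANTCA was in 2.84%, 5.86% and 5.2%, the CRE TGACGTCA in 3.98%, 2.07% and 2.74%, the FOXO motif TGTTTAC in 3.98%, 1.03% and 2.44%, and the NF-kB motif of the kappa B type in 2.27%, 0.345% and 0.383%. EGR1 held CArG boxes at -105 to -96 and -83 to -74 from its start, DUSP1 its CRE at -125 to -118, TNFAIP3 its NF-kB motif at -67 to -58 and NOP56 its EGR motif at -53 to -45. These are matches of letters and no test was made of them.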

How the data were processed

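The authors deposited 1 linear intensity for each of 1384231 probesets on each array. PLIER and Affymetrix Expression Console 1.1 are named in the submitters' processing notes; its settings, the background correction and the genome build are not given in the sources. Array medians had been equalised before deposit. The platform annotation paired 354600 probesets with 1 gene symbol, 14898 with several and left 1014733 unnamed here; old symbols were updated through RefSeq's gene table for GRCh38.p14. Probesets whose mean over 21 arrays reached the median over every probeset were kept, 73.7% of those with 1 symbol, and a gene needed at least 3. All 21 arrays entered 1 limma fit (limma 3.58.1, R 4.3.3, data.table version 1.17.8), with 1 mean per time, 14 residual and 7.08 prior degrees of freedom, and two-sided moderated tests. The number of arrays limits the precision.

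In a check on made-up data, noise was drawn independently for each gene and array from the gene's residual spread over all times. Of known changes of 0.5, 1 and 2 between 60 and 120 min 43.3%, 91% and 100% were recovered in 16614 genes. Of the unchanged genes 9 were called. The larger spread of the arrays at 120 min and deviations shared by many genes were not modelled, so recovery in the real data can be lower. Named genes were the 15 largest called changes each way with arrays apart, up to 4 called members per list with the smallest adjusted p, the 5 largest per timing group and direction, and the 4 largest turns each way; other list members were named after their values were seen. Members and lists were chosen with earlier results of these data known. Other settings tried were pseudocounts of 1 and 64, a stricter filter (75th percentile) or none, quantile normalisation, median centring, the mean over probesets, the arrays compared alone, a replicate block, the array index and leaving out each array.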

Additional observations from a re-analysis of the deposited data

How the results depend on the processing

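Quantile normalisation and median centring left the median change of all genes at 0.02 and 0.019, and kept the call and direction of all 146 genes followed (named genes, called list members and called turns). The counts of rises, falls and turns were 564, 331 and 105 with the mean over probesets, of which 304 rises and 179 falls were shared with the first fit, and 635, 494 and 118 with the array index as a covariate. With only the arrays compared, 148 genes rose and 105 fell, in a fit with fewer samples, and the cause of the lower counts was not tested. Leaving out single arrays gave 216 to 404 rises, 142 to 254 falls and 27 to 59 turns. Of the 146 genes 86 kept their side of the threshold and direction under all alternatives in which they were measured. The 1 reversal was TSIX, at 0.04 without the filter on dim probesets, where 18589 genes were tested; the cause was not tested. Single genes were no longer called most often with only the arrays compared (47) and least often, at 0, under both rescalings and the index covariate.

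The letters A, B and C of the cultures, used as replicate numbers 1 to 3, were not treated as pairs: the labels do not say that a letter marks a shared day or batch, and deviations of same-lettered arrays at 60 and 120 min correlated at 0.281, -0.187 and 0.565. With a replicate block 329 genes rose and 202 fell, 321 and 196 of them shared with the fit without it, and 43 turns were called. Dim genes are limited by signal over background, since no detection calls were used.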
